A study of Rattus norvegicus with 6 samples.

Results

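The insulin-like growth factor (IGF) genes described here are the ligands Igf1 and Igf2, the receptors Igf1r and Igf2r, and the binding proteins Igfbp2, Igfbp3, Igfbp4, Igfbp5, Igfbp6 and Igfbp7. These 10 genes were chosen by symbol from the 18746 genes of the count table, and every one of them was found there. RNA sequencing was performed on 3 libraries of PC12 cells transfected with a reagent against NQO1 (siNQO1) and 3 libraries of PC12 cells transfected with a control (siCtrl). PC12 is a line from a rat adrenal pheochromocytoma, a tumor of chromaffin cells. Both groups were transfected with the same lipid reagent in medium with serum, and no other genetic change, drug or stress was named for either group. The paper calls the reagents an siRNA against NQO1 and a nontargeting siRNA, whereas the sample labels name the groups shNQO1 and Ctrl and speak of an siRNA, an shRNA and a control plasmid. A single reagent against NQO1 was used, and both groups come from the same line. A harvest at 48 h is stated for the RT-qPCR cells, and no source used here gives that time for the sequenced cells. The paper calls the samples of a group biological replicates. The labels number them without naming separate cultures, so every p-value rests on the spread between the samples sequenced, which may be technical.

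IGF1 and IGF2 are small secreted peptides related to insulin that promote growth and survival through the IGF1 receptor, a tyrosine kinase that signals to PI3K, AKT and the RAS cascade. IGF2R, which is also the cation-independent mannose 6-phosphate receptor, has no kinase and takes IGF2 to lysosomes for degradation. The IGF binding proteins hold IGFs in the extracellular fluid or in matrix, and can lower or raise the amount of free ligand at the receptor. PC12 cells are a classical model in which IGF1 opposes apoptosis after withdrawal of serum or growth factors.

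Nqo1, the targeted gene, was at 80.8, 75.2 and 77.7 FPKM in siNQO1 libraries 1, 2 and 3, against 368.6, 320.5 and 345.3 FPKM in siCtrl libraries 1, 2 and 3. FPKM are fragments scaled by transcript length and by the number of mapped reads, as calculated by the authors. Reads counted in genes ranged from 28873824 to 39467230 per library, so that 1 read is worth 0.0253 to 0.0346 CPM (reads scaled to the library total). Across genes, log2 CPM correlated at 0.994 within the siNQO1 pairs and at 0.986 to 0.993 within the siCtrl pairs. siCtrl library 2 was as near to the siNQO1 libraries (0.989 to 0.990) as to siCtrl library 3 (0.989). With siCtrl library 1 it correlated at 0.986, and siCtrl library 1 correlated at 0.984 to 0.987 with the siNQO1 libraries. The calls were repeated without siCtrl library 2 and without each other library in turn.

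The markers of the labelled cell type were nearly absent. Of 12 chromaffin genes, 9 were in the table analysed here, and none of them exceeded 0.43 FPKM in any library. Th, the rate-limiting enzyme of catecholamine synthesis, was at 0.04 to 0.09 FPKM, and Chga, a core protein of chromaffin granules, was at 0.01 to 0.04 FPKM. Ddc, the next enzyme after Th, was listed at 0 in every siNQO1 library and at no more than 0.02 FPKM in siCtrl. Genes of the Schwann cell lineage were abundant, with Sox10 at 192.5 to 232.8 FPKM and S100b at 169.0 to 250.4 FPKM, and Pdgfra from the fibroblast list was at 45.4 to 51.2 FPKM. The defining endothelial, macrophage and adrenal cortex markers stayed at or below 1.45 FPKM. The cells are therefore called PC12 here after their label only.

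IGF binding protein RNA was mostly Igfbp7 in every library, and the signaling receptor and its ligands were expressed weakly. After NQO1 knockdown, Igfbp5 rose about 1.54-fold and was the only member of the family that passed the test. In edgeR's quasi-likelihood test it had a log2 fold change of 0.62 with a standard error of 0.0968 and a Benjamini-Hochberg adjusted p of 0.00588. Of the other 7 members tested, none was called by edgeR, DESeq2 or limma, although Igf1 and Igfbp3 had an unadjusted p under 0.05 in edgeR, and Igfbp2 and Igfbp6 had too few reads to be tested. The call of 1 of 8 tested members (12.5%) compares with 12.6% of the 12420 genes tested in either direction, 5.27% called higher and 7.38% called lower, a share near that of all genes. The median log2 fold change was 0.06 over the 8 members and 0.01 over all genes tested.

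In order of mean FPKM over the 6 libraries, the members ran Igfbp7 (222 FPKM), Igfbp4 (35.4), Igf2r (30.6), Igfbp5 (5.33), Igf1r (1.77), Igf1 (1.27), Igfbp6 (0.143), Igfbp3 (0.113), Igf2 (0.050) and Igfbp2 (0.0367). FPKM is per transcript length, so these levels can be set beside each other. The ranges over libraries separated Igfbp7 from Igfbp4, Igf2r from Igfbp5, Igfbp5 from Igf1r, and Igf1 from Igfbp6. Igfbp4 and Igf2r had overlapping ranges, although Igfbp4 was the higher in 6 of 6 libraries. Igf1r and Igf1 overlapped, with Igf1r higher in 4 of 6 libraries, and the 4 lowest members could not be ordered beyond their spread. Igfbp7 lay above 97.9% of all genes in the FPKM table, Igf2r above 85.3% and Igf1r above 49.6%.

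**Figure D1:**
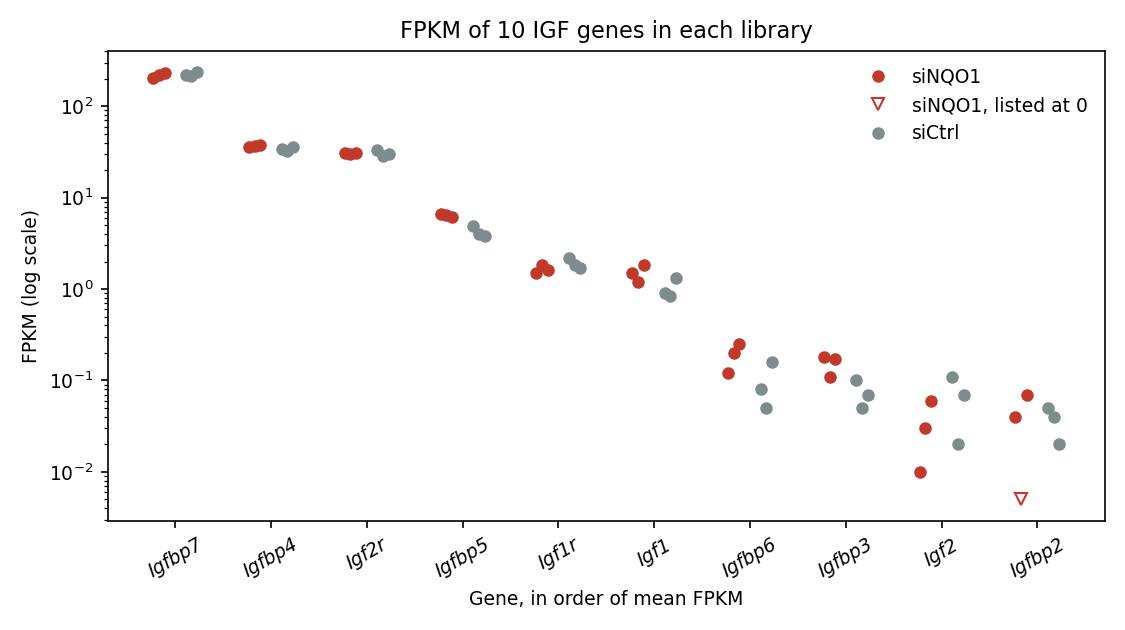
FPKM of the 10 IGF genes on a logarithmic axis, with 1 point for each library, siNQO1 in red left of siCtrl in gray, and the open triangle marking a library listed at 0. Igfbp7 stands above all other members at 205.5 to 236.6 FPKM, and the 4 members on the right stay at or below 0.25 FPKM.

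Of the ligands, Igf1 was detected in every library and Igf2 was close to the limit of detection. Igf1 was at 1.51, 1.19 and 1.83 FPKM in siNQO1 libraries 1, 2 and 3, against 0.91, 0.84 and 1.32 FPKM in siCtrl libraries 1, 2 and 3. The lowest siNQO1 library lay below the highest siCtrl library, so the groups overlapped. Its log2 fold change was 0.57 with a 95% interval of 0.05 to 1.09, and after adjustment over all genes it did not pass (adjusted p = 0.14 from edgeR). It rested on 87 to 161 reads per siNQO1 library and 58 to 103 reads per siCtrl library. Igf2, a fetal growth factor whose gene is imprinted, had 3, 6 and 16 reads in siNQO1 libraries 1, 2 and 3, against 21, 5 and 16 reads in siCtrl libraries 1, 2 and 3. These counts overlapped widely, and with an adjusted p of 0.432 from edgeR and a 95% interval of the log2 fold change from -2.39 to 0.66, a difference was not detectable at this depth.

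The receptors differed from each other in level far more than between the groups. Igf2r was at 30.98, 30.22 and 30.74 FPKM in siNQO1 libraries 1, 2 and 3, against 33.42, 28.63 and 29.89 FPKM in siCtrl libraries 1, 2 and 3. All siNQO1 values lay inside the range of siCtrl. Its log2 fold change was 0.01 with a 95% interval of -0.13 to 0.16 (adjusted p = 0.905 from edgeR), and the sign turned when siNQO1 library 1 or siCtrl library 2 was left out. Igf1r, the signaling receptor, was at 1.50, 1.81 and 1.62 FPKM in siNQO1 libraries 1, 2 and 3, against 2.19, 1.81 and 1.71 FPKM in siCtrl libraries 1, 2 and 3. The groups overlapped between 1.71 and 1.81 FPKM, siCtrl library 1 was the highest of the 6, and Igf1r did not pass (log2 fold change -0.20, 95% interval -0.49 to 0.10, adjusted p = 0.35 from edgeR). Within a library, Igf2r FPKM was 18.8 ± 1.99 times that of Igf1r in siNQO1 and 16.2 ± 1.15 times in siCtrl (SD, n = 3 each). These ratios overlapped between the groups (exact two-sided permutation p = 0.20).

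Igfbp5, a secreted protein that binds IGFs and matrix, was at 6.6, 6.5 and 6.2 FPKM in siNQO1 libraries 1, 2 and 3, against 4.92, 4.02 and 3.77 FPKM in siCtrl libraries 1, 2 and 3. Every siNQO1 library was therefore above every siCtrl library, and the siNQO1 libraries lay closer together. In FPKM, groups that did not overlap were found in 2 of the 8 members tested and in 33.6% of all genes tested. The means of Igfbp5 were 6.43 ± 0.208 FPKM (SD, n = 3) in siNQO1 and 4.24 ± 0.605 FPKM (SD, n = 3) in siCtrl. The exact two-sided permutation p of the FPKM was 0.10, which is the lowest value this number of libraries can reach. The counts were 1493, 1451 and 1659 reads in siNQO1 libraries 1, 2 and 3, against 957, 958 and 898 reads in siCtrl libraries 1, 2 and 3, and the 95% interval of the log2 fold change was 0.40 to 0.84. The call held when each library was left out in turn, with adjusted p up to 0.0425 from edgeR without siNQO1 library 2. Without siCtrl library 2 the log2 fold change was 0.58. The rise stayed below a fold of 2, the second threshold of the paper.

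**Figure D2:**
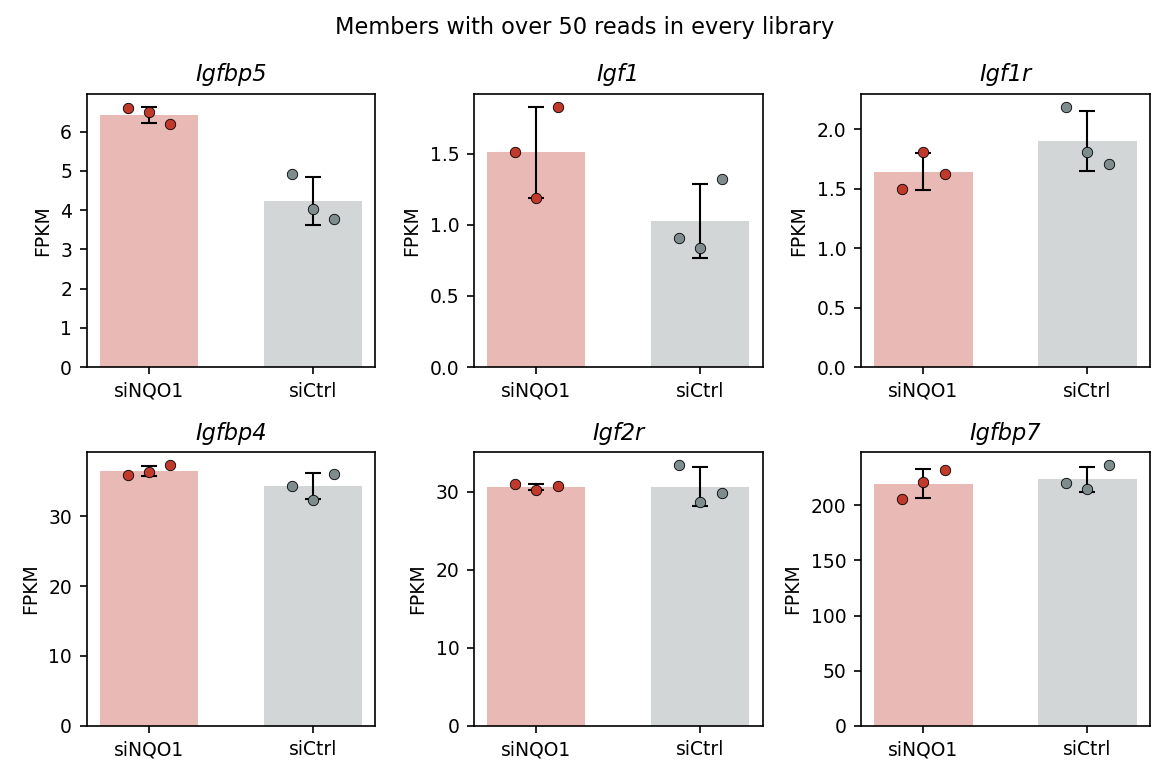
FPKM of the 6 members with the most reads, on linear axes that start at 0. Bars are group means, error bars are SD (n = 3), points are libraries, and siNQO1 in red stands left of siCtrl in gray. In Igfbp5 every siNQO1 point (6.2 to 6.6 FPKM) is above every siCtrl point (3.77 to 4.92 FPKM), whereas the points of the other 5 members overlap.

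Igfbp5 and Igfbp2 are adjacent protein-coding genes on chromosome 9 in the RefSeq gene order. Igfbp5 was read 7416 times over the 6 libraries. Igfbp2 had 2, 0 and 4 reads in siNQO1 libraries 1, 2 and 3, against 2, 2 and 1 reads in siCtrl libraries 1, 2 and 3. On the other side of Igfbp2 lies Rpl37a, a ribosomal protein gene picked here for its position, at a mean of 449 FPKM in siNQO1 and 394 FPKM in siCtrl. Rpl37a passed narrowly (log2 fold change 0.20, adjusted p = 0.0494 from edgeR), where 12.6% of all genes tested were called. The nearly silent Igfbp2 thus sat between a strongly and a moderately expressed gene. The 250 bases before the RefSeq start of these adjacent members are shown for this contrast in level, 5′ to 3′ on the strand of the gene, from RefSeq in build GRCr8, with each CG dinucleotide in capitals. The Igfbp5 stretch is chr9:81914188-81914437 on the minus strand and the Igfbp2 stretch is chr9:81864561-81864810 on the plus strand.
Igfbp5: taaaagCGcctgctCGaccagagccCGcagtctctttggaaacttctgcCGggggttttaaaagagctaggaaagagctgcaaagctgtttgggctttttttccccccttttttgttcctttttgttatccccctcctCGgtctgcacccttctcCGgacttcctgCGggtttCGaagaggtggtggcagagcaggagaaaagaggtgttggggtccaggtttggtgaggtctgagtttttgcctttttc
Igfbp2: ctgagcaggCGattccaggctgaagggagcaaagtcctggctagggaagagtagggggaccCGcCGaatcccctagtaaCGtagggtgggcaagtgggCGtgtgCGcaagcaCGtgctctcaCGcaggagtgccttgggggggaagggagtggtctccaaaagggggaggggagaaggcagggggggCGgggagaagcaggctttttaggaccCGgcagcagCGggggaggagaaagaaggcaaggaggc
The Igfbp5 stretch held 8 CG dinucleotides at 51.6% G and C, and the Igfbp2 stretch held 11 at 64.0% G and C. At least 8 CG dinucleotides were found in 41.6% and at least 11 in 33.6% of the 33469 RefSeq promoter stretches of this length, with a median of 5. The counts are a description of the letters, and neither methylation nor factor binding was measured.

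Igfbp7, which is secreted into the matrix and binds IGFs weakly, was at 205.5, 221.5 and 232.3 FPKM in siNQO1 libraries 1, 2 and 3, against 220.1, 214.8 and 236.6 FPKM in siCtrl libraries 1, 2 and 3. These ranges overlapped between 214.8 and 232.3 FPKM, and the log2 fold change was -0.01 with a 95% interval of -0.16 to 0.13 (adjusted p = 0.906 from edgeR). The sign of this value turned when siNQO1 library 1 or siCtrl library 3 was left out. Igfbp4, which mostly inhibits IGF action, was at 35.9, 36.4 and 37.4 FPKM in siNQO1 libraries 1, 2 and 3, against 34.4, 32.4 and 36.1 FPKM in siCtrl libraries 1, 2 and 3. The lowest siNQO1 library was below the highest siCtrl library by a small margin, and Igfbp4 did not pass (log2 fold change 0.10, 95% interval -0.03 to 0.24, adjusted p = 0.268 from edgeR). Both intervals exclude a change as large as that of Igfbp5.

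The remaining binding proteins were close to the limit of detection. Igfbp3, the main carrier of IGFs in blood, had 17, 10 and 19 reads in siNQO1 libraries 1, 2 and 3, against 8, 5 and 7 reads in siCtrl libraries 1, 2 and 3. The groups did not overlap in reads or in FPKM (0.18, 0.11 and 0.17 in siNQO1, against 0.10, 0.05 and 0.07 in siCtrl). In FPKM, 33.6% of all genes tested had groups that did not overlap. Igfbp3 met the filter on low counts through the siNQO1 libraries alone, in which all 3 were at or over 0.295 CPM against none in siCtrl. Igfbp3 thus entered the test through the group in which it was higher. It did not pass, with a log2 fold change of 1.09, a 95% interval of 0.13 to 2.06 and an adjusted p of 0.13 from edgeR. Igfbp6, which prefers IGF2 over IGF1, had 5, 8 and 12 reads in siNQO1 libraries 1, 2 and 3, against 3, 2 and 7 reads in siCtrl libraries 1, 2 and 3. The groups of Igfbp6 overlapped, and like Igfbp2 it did not meet the filter.

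**Figure D3:**
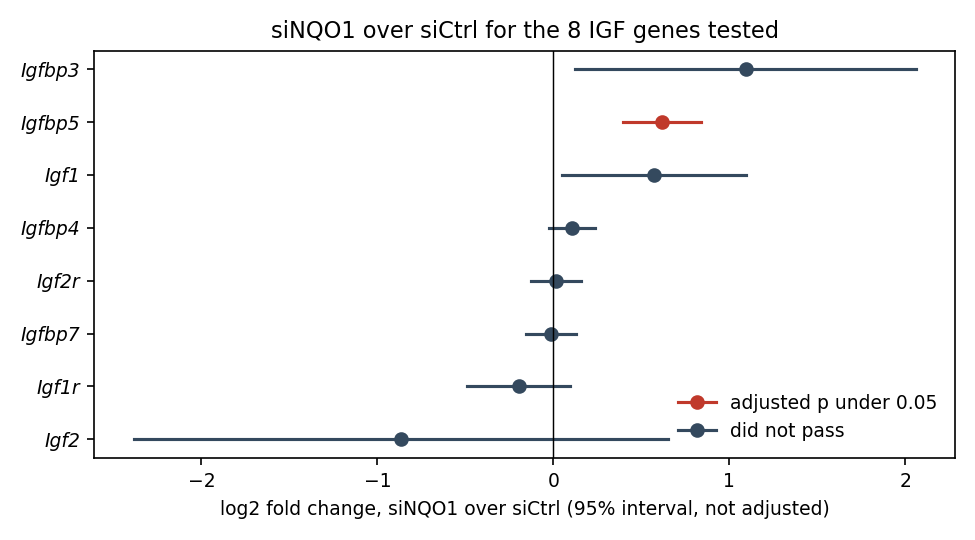
Log2 fold change of siNQO1 over siCtrl for the 8 members tested, from edgeR. Points are estimates, lines are 95% intervals that are not adjusted for the number of genes, and red marks the member with an adjusted p under 0.05. Igfbp5 at 0.62 is the red point, and the line of Igf2 from -2.39 to 0.66 is the widest of the 8.

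Most binding protein RNA was Igfbp7 in both groups, and the share of Igfbp5 was higher in siNQO1. The summed FPKM of the 6 binding proteins was 248.4, 264.7 and 276.4 in siNQO1 libraries 1, 2 and 3, against 259.7, 251.4 and 276.8 in siCtrl libraries 1, 2 and 3. Igfbp7 made up 83.5% ± 0.683 (SD, n = 3) of this sum in siNQO1 and 85.2% ± 0.406 (SD, n = 3) in siCtrl. Igfbp5 made up 2.66%, 2.46% and 2.24% in siNQO1 libraries 1, 2 and 3, against 1.89%, 1.60% and 1.36% in siCtrl libraries 1, 2 and 3. The shares of Igfbp5 did not overlap between the groups, and those of Igfbp3, Igfbp4 and Igfbp7 did not either (p = 0.10 each in exact two-sided permutation tests, again the lowest value possible). Shares of a library are parts of the same sum, so these are not separate observations. The FPKM of Igfbp4 and Igfbp7 overlapped between the groups, and Igfbp3 had at most 19 reads in a library. In FPKM, 33.6% of all genes tested had groups that did not overlap. As a share of CPM, which is not per length, Igfbp5 was at 10.5% in siNQO1 and 7.19% in siCtrl. Within a library, Igfbp5 FPKM was 0.176 ± 0.00914 times that of Igfbp4 in siNQO1 and 0.124 ± 0.0193 times in siCtrl (SD, n = 3 each).

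The genes whose profile over the 6 libraries was nearest to that of Igfbp5 were Mib1, Zfp28 and Lgmn. Likeness was the root mean square difference of log2 CPM after each gene was centered on its own mean, over 11096 genes with an average log2 CPM over 0. It was 0.0759 for Mib1, which encodes a ubiquitin ligase, 0.0815 for the zinc finger gene Zfp28 and 0.0909 for Lgmn, which encodes the protease legumain, where Igfbp5 itself deviated from its mean by 0.333. Lgmn was the most abundant of these, at 40.35, 39.51 and 39.37 FPKM in siNQO1 libraries 1, 2 and 3, against 25.92, 22.41 and 22.60 FPKM in siCtrl libraries 1, 2 and 3. In Igfbp5, Mib1, Zfp28 and Lgmn alike, siCtrl library 1 was the highest siCtrl library. Mib1, Zfp28 and Lgmn were chosen for their likeness to Igfbp5, so a shared order of libraries is no separate observation.

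Among relatives of the IGF family, Igf2bp2 was the gene that passed. This was 1 of 9 tested, against 12.6% called over all genes tested. Of 17 genes of the insulin family, receptor substrates, IGF binding protein proteases and their inhibitors, and IGF2 mRNA binding proteins, 13 were in the table, 9 were tested, 1 rose and none fell, with a median log2 fold change of -0.10. Igf2bp2, an RNA-binding protein named for its binding to the Igf2 mRNA, was at 39.3, 38.8 and 37.0 FPKM in siNQO1 libraries 1, 2 and 3, against 25.8, 31.4 and 27.8 FPKM in siCtrl libraries 1, 2 and 3. The groups did not overlap, which in FPKM held for 2 of the 9 genes tested on this list and for 33.6% of all genes tested. Its log2 fold change was 0.45 (adjusted p = 0.00668 from edgeR). Igf2bp2 did not pass without siNQO1 library 2 (adjusted p = 0.0592 from edgeR). Insr, the insulin receptor, was at 2.22 to 2.88 FPKM in siNQO1 and 2.84 to 3.15 FPKM in siCtrl, above Igf1r in 6 of 6 libraries, and did not pass (log2 fold change -0.23, adjusted p = 0.197 from edgeR). The adaptors Irs1 and Irs2, which couple these receptors to PI3K, had log2 fold changes of -0.11 and 0.12 and did not pass.

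Genes that act on the binding proteins differed widely in level. Htra1, a secreted protease that can cleave IGF binding proteins, was at 247.7 to 254.7 FPKM in siNQO1 and 224.9 to 261.1 FPKM in siCtrl, above Igfbp7 on average. It did not pass (log2 fold change 0.05, adjusted p = 0.672 from edgeR). Pappa, the protease of Igfbp4, was listed at 0 in 5 of 6 libraries and at 0.01 FPKM in siNQO1 library 2. Igfbp1, the neighbor of Igfbp3 in the RefSeq order, had 4 reads in siNQO1 and 0 in siCtrl over 3 libraries each, where a count of 0 allows up to 3 reads.

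Below the IGF1 receptor, genes were called about as often as over the whole table, at 12.1% against 12.6%. Of 35 genes of the PI3K, AKT, mTOR and RAS branches, 33 were tested, 1 rose, 3 fell and 29 did not pass, with a median log2 fold change of -0.03. Inppl1, a phosphatase that acts on the product of PI3K, fell to 17.1, 17.0 and 18.6 FPKM in siNQO1 libraries 1, 2 and 3, against 23.6, 20.3 and 21.4 FPKM in siCtrl libraries 1, 2 and 3 (log2 fold change -0.30, adjusted p = 0.0267 from edgeR). The adaptor Shc1 and the kinase Akt2 fell as well, with log2 fold changes of -0.28 and -0.18 (adjusted p = 0.0277 and 0.0484 from edgeR). In each of these 3 genes the groups did not overlap. In FPKM this held for 10 of the 33 genes tested on this list and for 33.6% of all genes tested. Akt1, the most abundant AKT gene, was at 247 ± 3.06 FPKM in siNQO1 and 247 ± 13.5 FPKM in siCtrl (SD, n = 3 each).

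In the mannose 6-phosphate system that Igf2r serves, Nagpa was the gene that passed. This was 1 of 10 tested, against 12.6% called over all genes tested. Of 10 genes that tag lysosomal enzymes or sort their receptors, all 10 were tested, 1 rose and none fell, with a median log2 fold change of 0.08. Nagpa, the enzyme that uncovers the mannose 6-phosphate tag, was at 11.6, 12.2 and 11.9 FPKM in siNQO1 libraries 1, 2 and 3, against 10.5, 9.14 and 8.90 FPKM in siCtrl libraries 1, 2 and 3 (log2 fold change 0.34, adjusted p = 0.0308 from edgeR). The groups did not overlap, which in FPKM held for 5 of the 10 genes of this list and for 33.6% of all genes tested. M6pr, the other mannose 6-phosphate receptor, did not pass (log2 fold change 0.08, adjusted p = 0.26 from edgeR), and Igf2r was at 0.320 ± 0.00154 times its FPKM in siNQO1 and 0.335 ± 0.0277 times in siCtrl (SD, n = 3 each).

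The calls among these pathway genes depended on single libraries. With a list of imprinted growth genes included, 6 of 55 pathway genes tested were called (10.9%, against 12.6% of all genes). The number was 0 without siNQO1 library 2, 1 without siCtrl library 3, 2 without siNQO1 library 1 or 3, 4 without siCtrl library 1 and 22 without siCtrl library 2. The highest adjusted p from edgeR with 1 library left out was 0.129 for Nagpa, 0.124 for Akt2, 0.0967 for Shc1 and 0.0928 for Inppl1. Igfbp5 was called in every one of these fits.

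**Figure D4:**
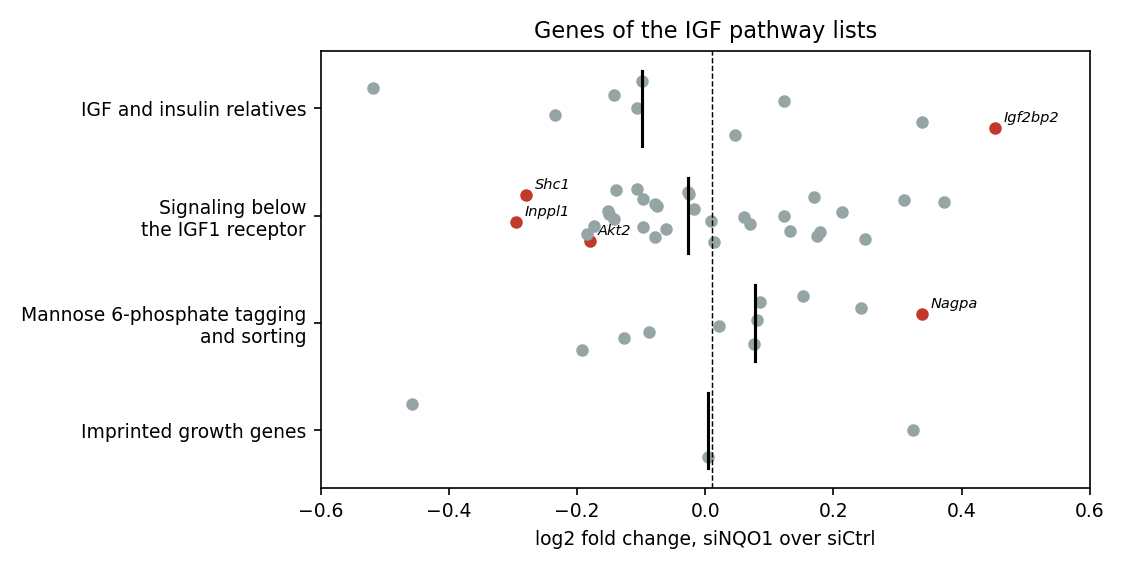
Log2 fold change of siNQO1 over siCtrl for 54 of the 55 pathway genes tested, by list. Each point is a gene, red points with names have an adjusted p under 0.05, the short vertical lines are medians over all tested genes of a list and the dashed line is the median of all genes tested. The 5 red points lie on both sides of 0, and the list medians run from -0.10 to 0.08.

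Schwann cell markers moved between the groups together with Igfbp5. Of 6 markers, 5 were tested, 1 rose and 2 fell, where 12.6% of all genes tested were called. Their summed level was 416 to 423 FPKM in siNQO1 and 470 to 536 FPKM in siCtrl. S100b and the neuregulin receptor Erbb3 fell, with log2 fold changes of -0.45 and -0.43 (adjusted p = 0.00329 and 0.00583 from edgeR), and Mbp stayed at or below 0.04 FPKM. Their part in the change of Igfbp5 was not tested. The summed fibroblast markers were at 46.4 to 49.7 FPKM in siNQO1 and 50.9 to 51.7 FPKM in siCtrl, almost all of it Pdgfra, which did not pass (log2 fold change -0.10, adjusted p = 0.229 from edgeR). Col1a1, a fibrillar collagen, lay the other way, narrowly without overlap, at 0.38 to 0.56 FPKM in siNQO1 and 0.21 to 0.37 FPKM in siCtrl. It did not pass (log2 fold change 0.72, adjusted p = 0.0743 from edgeR). In FPKM, 33.6% of all genes tested had groups that did not overlap. Col3a1, from the same list, overlapped and did not pass (log2 fold change 0.035, adjusted p = 0.923 from edgeR). Dcn stayed at or below 0.01 FPKM. In these libraries of whole cultures, fewer cells of a type and less RNA per cell cannot be told apart.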

How the data were processed

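Polyadenylated RNA was sequenced as paired reads from a stranded library kit. The paper's methods state that the authors trimmed the reads, aligned them to the RGSC6 genome with TopHat2 and kept uniquely mapped reads. One deposited table holds raw read counts by gene. The other holds FPKM that the authors computed from the same reads and gave in steps of 0.01, which limits the members near 0. No source used here gives the counting tool or its strand setting, and overlapping genes may share reads.

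The count test was edgeR 4.0.16 in R 4.3.3 on the whole table (filterByExpr with the groups, TMM scaling, glmQLFit and glmQLFTest without a block, Benjamini-Hochberg adjustment over 12420 genes, called at an adjusted p under 0.05). Standard errors were derived from the F statistic. The fits were tested on simulated data. Members and lists were chosen with earlier results of these data known. Named genes are the 10 members, the pathway genes called (1 left out), the 3 nearest profiles to each called member, and Nqo1; other list genes, markers and the neighbor Rpl37a were named for their role or position after their values were seen. RLE and upper-quartile scaling, no filter, a filter of 1 CPM in 3 libraries, DESeq2 1.42.0, limma 3.58.1 (voom, and log2 FPKM with pseudocounts of 1 and 0.1), a block for the replicate number, and leaving out single libraries in turn were tried as alternatives. For Grb2, which stands on 2 rows, the row described as the adaptor was used. RefSeq symbols matched all 10 members. Some list genes are counted but not reported here by name, and 1 of them is not plotted. Protein sequences and splicing were not analysed here.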

Additional observations from a re-analysis of the deposited data

How the results depend on the processing

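Under all 15 alternatives 1 member, Igfbp5, was called, with log2 fold changes from 0.51 with limma on log2(FPKM + 1) to 0.72 without siCtrl library 1 and adjusted p up to 0.0425. Igf1, Igf1r, Igfbp4, Igf2 and Igfbp3 kept their sign and did not pass under any alternative that gave an adjusted p. DESeq2 gave none for Igf2 and Igfbp3, and the stricter filter removed them. On log2(FPKM + 1), which understates low genes, Igfbp3 was at 0.10 and Igf2 at -0.05. Values near 0 changed sign in 2 members. With 1 library left out, Igf2r ran from -0.038 (without siCtrl library 2) to 0.058 and was at -0.016 without siNQO1 library 1, and Igfbp7 ran from -0.058 to 0.038 (without siCtrl library 3) and was at 0.011 without siNQO1 library 1. Over all genes, 1571 were called, between 1350 and 1805 under the other settings, and between 518 (without siNQO1 library 2) and 4200 (without siCtrl library 2) with 1 library left out. As a share of CPM in place of FPKM in siNQO1, Igfbp5 made up 10.5% against 2.45% of the binding proteins, Igfbp4 22.1% against 13.9% and Igfbp7 67.2% against 83.5%, since CPM is not per length. The pathway genes called numbered 6, between 5 and 8 under the other settings and between 0 and 22 with 1 library left out. With the replicate block, 1350 genes, 5 pathway genes and 1 member (Igfbp5, log2 fold change 0.63, adjusted p = 0.00686) were called. Libraries with the same number had deviations from the group mean that correlated at -0.0383, 0.161 and 0.0568. Pairs with different numbers had correlations from -0.171 to 0.149. With 3 libraries per group these values cannot decide whether same-numbered libraries share a culture or batch. Nagpa and Akt2 did not pass with the block. Akt2 also did not pass with upper-quartile scaling, without a filter, in DESeq2 or in limma voom. The cause was not tested. Igf2, Igfbp2, Igfbp3 and Igfbp6 had at most 21 reads in any library, which limits what can be seen of them.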

Other observations

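Igf2 and Igf2r are imprinted in rodents, and 4 of 9 other imprinted growth genes were in the table. Mest was at 22.6 ± 0.464 FPKM in siNQO1 and 22.8 ± 2.20 FPKM in siCtrl (SD, n = 3 each). Peg3 was at 6.30, 6.28 and 5.59 FPKM in siNQO1 libraries 1, 2 and 3, against 4.09, 6.28 and 4.27 FPKM in siCtrl libraries 1, 2 and 3, so that siCtrl library 2 lay with the siNQO1 libraries. Plagl1, a transcription factor that is known to bind near Igf2 in mice, ran from 2.39 to 7.32 FPKM in siNQO1 and from 3.56 to 8.38 FPKM in siCtrl. Dlk1 was listed at 0 in 5 of 6 libraries. Of the 3 tested, Mest, Peg3 and Plagl1, none passed in edgeR (adjusted p = 0.983, 0.191 and 0.521), none had an unadjusted p under 0.05, and 1 passed without siCtrl library 2.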
